A study of Rattus norvegicus with 17 samples.

Results

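The macrophage, phagocyte and complement genes of the rat meibomian gland (MG) were followed across 4 groups of rats, with and without ultraviolet B (UVB) exposure of the eyelids. The set holds 42 genes chosen by name for what they encode, with earlier results of these data known. Of these, 40 were listed among the 17251 genes of the expression table, while Cfb and C5ar1 were not analysed here. Siglec1 and Msr1 were listed but did not reach 1 TPM in 3 rats, which left 38 members among the 13105 genes tested. Of the 38, 36 reached 1 TPM in at least 3 control rats, and Ms4a7 and C3ar1 passed this filter only with the UVB rats.

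MGs were dissected from 17 female Sprague-Dawley rats, 10 to 12 weeks old per the labels, and total RNA was sequenced. The control groups held 4 WT rats (Control WT) and 5 P1.hMR rats (Control P1.hMR), and the irradiated groups 3 WT rats (UVB WT) and 5 P1.hMR rats (UVB P1.hMR). WT rats were wild-type, and P1.hMR rats carried the human mineralocorticoid receptor gene NR3C2 under its proximal P1 promoter, which drives it in all tissues that express the receptor and not in the MG alone. The UVB groups received UVB on the shaved upper eyelids on each of 5 days with the cornea covered, and the control groups were not irradiated. The labels do not say whether the control rats were shaved or handled in the same way. The values are TPM, which are scaled per transcript length and give each gene's share of the transcripts in a library.

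Macrophages are the resident phagocytes of most tissues and arise from monocytes or from embryonic precursors under the growth factor Csf1 and its receptor Csf1r. They take up debris and microbes through scavenger receptors, lectins and Fc receptors, and kill with lysozyme and the phagocyte oxidase. Complement is a cascade of plasma and tissue proteins whose classical pathway starts with the C1 complex and cleaves C2 and C4 on the way to C3, and macrophages are a known source of C1q.

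The human transgene was at 0 TPM in every WT rat and between 5.31 and 9.31 TPM in every P1.hMR rat. Between 12372 and 12737 genes per library reached 1 TPM, and depth is unknown because TPM keeps no counts. The tissue carried its defining markers, with 9 meibocyte genes summing to between 36050 and 49480 TPM per rat. It also held skeletal muscle RNA, with 7 genes summing to between 1629 and 3861 TPM. Control WT rat 4 was the highest of its group in 35 of the 38 tested members, and UVB WT rat 2 was the lowest of its group in 32 of them.

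After UVB, the receptor genes Cd163, Mrc1, Stab1, Cd14, Fcgr1a and Fcgr2b and all 6 classical complement genes of the set rose in both genotypes. The growth factor receptor Csf1r, the pan-leukocyte gene Ptprc and the 3 oxidase genes were not called in either. In WT rats, 14 of the 38 tested members were called higher and 0 lower after UVB, against 3.92% of all genes tested called higher and 3.98% called lower. In P1.hMR rats, 17 were called higher and 0 lower, against 5.05% and 5.71% of all genes. A gene was called at a limma Benjamini-Hochberg adjusted p under 0.05 and a difference of at least 0.5 on the log2(TPM + 1) scale, in either direction. At an unadjusted p under 0.05, 17 members passed in WT rats and 20 in P1.hMR rats. The share of all genes at that level is not given, so these numbers do not set the members apart. The median difference over the tested members was 0.32 in WT rats and 0.42 in P1.hMR rats, and over all genes tested it was 0.0054 and -0.016. Ms4a7 and C3ar1 could only have entered through a high UVB value, and these counts and medians describe the members and are not a test of the set. Without Control WT rat 4 or without UVB WT rat 2, 17 members were called higher in WT rats, while without UVB WT rat 3 it was 11, and without Control WT rat 1 or 3 or UVB WT rat 1 it was 12. In bulk tissue, more cells of a type and more RNA per cell cannot be told apart.

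**Figure D1:**
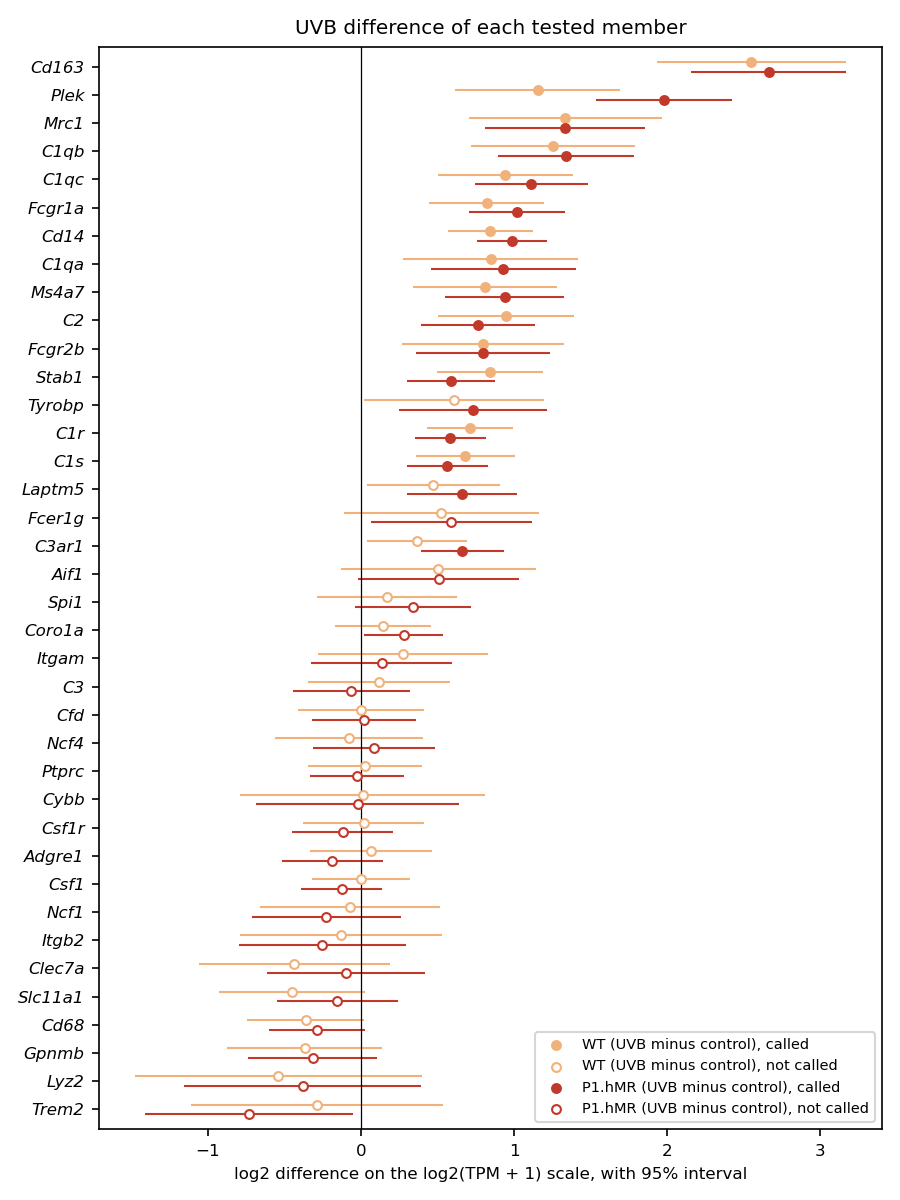
UVB minus control difference of each of the 38 tested members on the log2(TPM + 1) scale, with the 95% interval of limma, in WT rats (orange) and P1.hMR rats (red). Filled points were called and open points were not. Cd163 lies farthest to the right at 2.55 and 2.66, and no filled point lies left of 0.

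The 14 members called in both genotypes were Cd163, Mrc1, Stab1, Ms4a7, Cd14, Fcgr1a, Fcgr2b, Plek, C1qa, C1qb, C1qc, C1r, C1s and C2. Another 3 members, Tyrobp, Laptm5 and C3ar1, passed in P1.hMR rats but not in WT rats, and no member passed in WT rats alone. Every UVB rat lay above every control rat of its genotype for 11 members in WT rats and 17 in P1.hMR rats, against 14% and 13.2% of all genes tested. The 17 members in P1.hMR rats were those that were called, and in WT rats Fcgr1a, Fcgr2b and C1qa were called with groups that overlapped. The 2 comparisons share no rats.

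Cd163, the scavenger receptor for haptoglobin-bound haemoglobin, rose most of all members in both genotypes. In the order of rat number, as throughout, it was at 0.93, 1.46, 0.56 and 0.93 TPM in Control WT rats 1 to 4 and at 1.27, 1.86, 0.73, 0.76 and 0.44 TPM in Control P1.hMR rats 1 to 5. After UVB it was at 13.48, 5.54 and 14.58 TPM in WT rats 1 to 3 and at 12.2, 10.45, 9.47, 17.36 and 8.92 TPM in P1.hMR rats 1 to 5. All 8 UVB rats lay above all 9 control rats, with UVB WT rat 2 the lowest of the UVB rats. The difference was 2.55 (standard error 0.29, limma adjusted p = 4.97e-05) in WT and 2.66 (standard error 0.24, adjusted p = 1.48e-06) in P1.hMR rats. This scale understates the change of genes near 1 TPM. Mean Cd163 was 0.97 TPM in Control WT and 11.2 TPM in UVB WT rats, and 1.01 and 11.7 TPM in the P1.hMR groups.

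Mrc1, the mannose receptor, was at 1.27, 2.66, 1.54 and 3.11 TPM in Control WT and 2.42, 3.99, 1.77, 2.77 and 1.64 TPM in Control P1.hMR rats. It was at 8.81, 3.43 and 9.48 TPM in UVB WT and 7.53, 7.63, 6.52, 11.29 and 5.94 TPM in UVB P1.hMR rats, so UVB WT rat 2 came close to Control WT rat 4 without overlap. The difference was 1.33 in WT rats (standard error 0.30, limma adjusted p = 0.00539) and 1.33 in P1.hMR rats (standard error 0.25, adjusted p = 5.47e-04).

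Stab1, the scavenger receptor stabilin-1, was at 1.59, 2.07, 1.72 and 2.22 TPM in Control WT and 2.51, 2.15, 1.92, 2.26 and 2.07 TPM in Control P1.hMR rats. After UVB it was at 5.42, 2.84 and 4.66 TPM in WT rats and 3.88, 3.09, 3.76, 5.28 and 3.15 TPM in P1.hMR rats, again without overlap and with UVB WT rat 2 lowest. It rose by 0.84 (limma adjusted p = 0.00221) in WT rats and 0.59 (adjusted p = 0.00279) in P1.hMR rats, where the call was lost without UVB P1.hMR rat 4, at 0.49 (limma adjusted p = 0.00778). Ms4a7, a membrane protein of tissue macrophages, was below 1 TPM in all control rats, at 0.37, 0.32, 0.48 and 0.85 TPM in Control WT and 0.58, 0.45, 0.52, 0.19 and 0.4 TPM in Control P1.hMR rats. It was at 1.59, 1 and 2.46 TPM in UVB WT and 2.45, 2.6, 0.77, 1.65 and 1.56 TPM in UVB P1.hMR rats, and UVB P1.hMR rat 3 stood below the other UVB rats. Its difference was 0.81 (limma adjusted p = 0.0163) in WT rats and 0.94 (adjusted p = 8.39e-04) in P1.hMR rats. Ms4a7 passed the filter only with the UVB rats, so only a high UVB value could have let it in. Without UVB WT rat 3 it was not called in WT rats, at 0.61 (limma adjusted p = 0.0865), nor with a skeletal muscle covariate, at 0.57 (adjusted p = 0.0936).

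Adgre1, which encodes the macrophage marker F4/80, and Cd68, a lysosomal glycoprotein of phagocytes, were not called. Adgre1 ranged from 0.71 to 1.85 TPM in the control rats and from 0.63 to 1.57 TPM in the UVB rats, with a difference of 0.063 in WT rats and -0.19 in P1.hMR rats. Cd68, the most abundant of the scavenger and macrophage receptor genes, ranged from 26.99 to 50.98 TPM in the 9 control rats and from 25.01 to 36.52 TPM in the 8 UVB rats. Its difference was -0.36 (95% interval -0.74 to 0.016) in WT rats and -0.29 (-0.60 to 0.027) in P1.hMR rats. Averaged over genotypes, Cd68 had a difference of -0.32 with a limma adjusted p of 0.0304, which lay under the fold threshold. Without Control WT rat 1, Cd68 was called lower in WT rats, at -0.53 (limma adjusted p = 0.023), the only called fall of a member there under any alternative. Siglec1, the sialoadhesin of resident macrophages, lay between 0.06 and 0.32 TPM and Msr1, a class A scavenger receptor, between 0.08 and 0.81 TPM over all rats, and neither was tested.

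**Figure D2:**
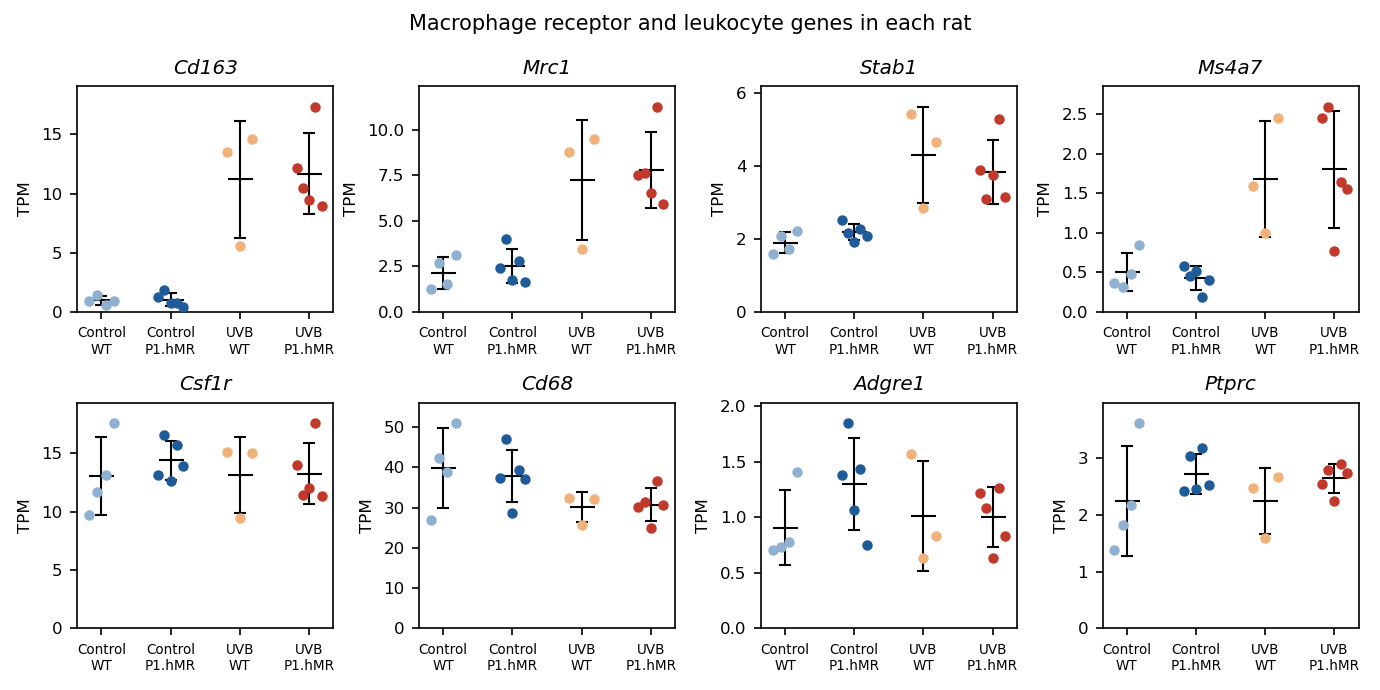
TPM of 8 members in each rat (points), with the mean and SD of each group (bars), on linear axes from 0. In the upper row, Cd163, Mrc1, Stab1 and Ms4a7 are higher in the UVB rats of both genotypes, and in the lower row Csf1r, Cd68, Adgre1 and Ptprc overlap between UVB and control rats.

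None of the 3 genes for the growth factor, its receptor and the lineage factor was called. Csf1r, the receptor that maintains macrophages, was at 9.76, 11.69, 13.12 and 17.61 TPM in Control WT and 13.17, 16.58, 12.65, 15.73 and 13.93 TPM in Control P1.hMR rats. It was at 15.13, 9.43 and 15.02 TPM in UVB WT and 13.97, 11.45, 12.02, 17.61 and 11.34 TPM in UVB P1.hMR rats, and the groups overlapped throughout. The difference was 0.016 (95% interval -0.38 to 0.41) in WT rats and -0.12 (-0.45 to 0.21) in P1.hMR rats, so a rise of the size seen for Cd163 lay outside both intervals. Csf1, its ligand, ranged from 7.44 to 13.34 TPM over all rats and had differences of -7.5e-04 and -0.13. Spi1, which encodes the myeloid transcription factor PU.1, had differences of 0.17 in WT rats (95% interval -0.29 to 0.63) and 0.34 in P1.hMR rats (-0.038 to 0.72), at levels from 4.17 to 9.71 TPM. With a hair keratin covariate Spi1 was called higher in P1.hMR rats, at 0.56 (limma adjusted p = 0.0244). With that covariate and the genotypes averaged it was also called, at 0.56 (limma adjusted p = 0.0221). Summed hair keratin TPM itself averaged 579.8 and 539.7 in the control and 291.5 and 338.1 in the UVB groups, in the order WT and P1.hMR. How far this shift shaped the calls was not tested.

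Because Csf1r did not change detectably, several members were also set against it within each rat, a description chosen after the values were seen and given without a test. The ratio of Cd163 to Csf1r was 0.0789 ± 0.0382 (SD, n = 4) in Control WT and 0.0692 ± 0.0338 (SD, n = 5) in Control P1.hMR rats. In UVB WT and UVB P1.hMR rats it was 0.816 ± 0.202 (SD, n = 3) and 0.869 ± 0.0851 (SD, n = 5), above every control rat. The ratio of C1qb to Csf1r went from 1.29 ± 0.268 and 1.19 ± 0.316 in the control groups to 3.11 ± 0.343 and 3.32 ± 0.146 in the UVB groups. For Mrc1 it went from 0.163 ± 0.05 and 0.172 ± 0.047 to 0.526 ± 0.142 and 0.583 ± 0.066. The ratio of Ptprc to Csf1r stayed near its control level, at 0.167 ± 0.0274 and 0.189 ± 0.00884 in control and 0.17 ± 0.00704 and 0.204 ± 0.0368 in UVB rats, in the order WT and P1.hMR. UVB WT rat 2, which was low in most members, had a Cd163 ratio of 0.588, still above the highest control value of 0.125.

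**Figure D3:**
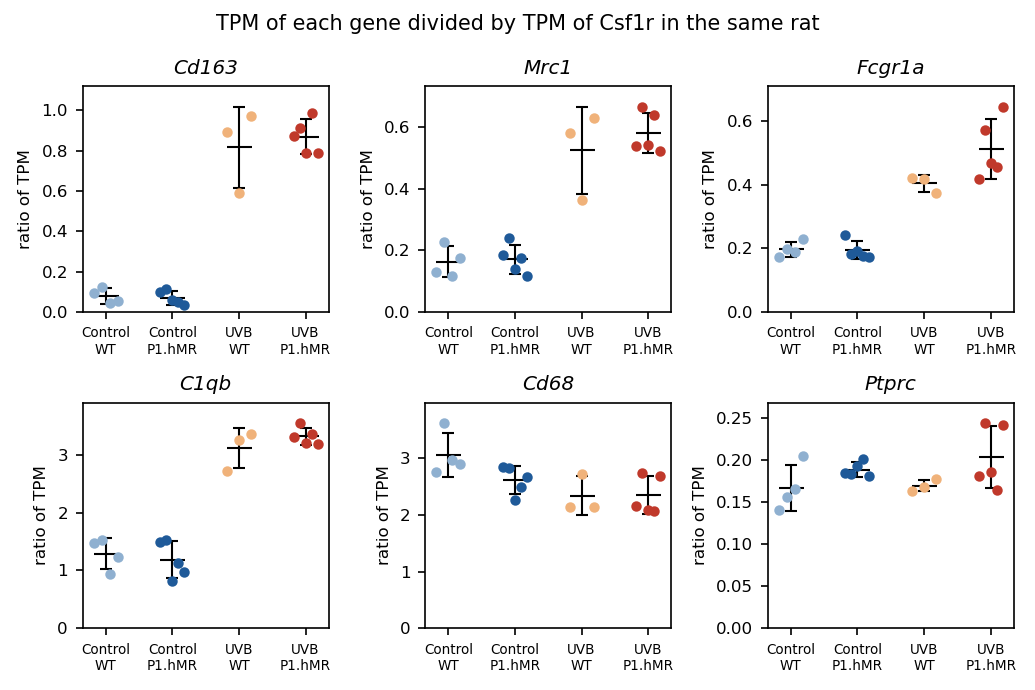
TPM of 6 members divided by the TPM of Csf1r in the same rat (points), with the mean and SD of each group (bars). The ratios of Cd163, Mrc1, Fcgr1a and C1qb in the UVB rats lie above those of all control rats, and those of Ptprc overlap between UVB and control rats. Those of Cd68 overlap in P1.hMR rats. In WT rats the Cd68 ratios after UVB (2.142 to 2.734) lie below the control ratios (2.765 to 3.625).

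Among the sensing receptors, adaptors and lysosomal effectors, 3 of 11 tested genes were called higher in WT rats and 4 in P1.hMR rats. Cd14, the co-receptor for bacterial lipopolysaccharide, was at 10.83, 11.95, 10.6 and 14.5 TPM in Control WT and 12.61, 14.45, 9.74, 13.56 and 12.07 TPM in Control P1.hMR rats. It was at 20.39, 21.44 and 24.78 TPM in UVB WT and 22.09, 22.83, 28.68, 25.57 and 29.33 TPM in UVB P1.hMR rats, and here UVB WT rat 2 lay within its group. Cd14 rose by 0.84 (standard error 0.13, limma adjusted p = 4.99e-04) in WT and by 0.99 (standard error 0.11, adjusted p = 6.06e-06) in P1.hMR rats.

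Fcgr1a, the high-affinity receptor for immunoglobulin G, was at 1.68, 2.31, 2.47 and 4.01 TPM in Control WT and 3.19, 3.04, 2.43, 2.76 and 2.41 TPM in Control P1.hMR rats. After UVB it was at 6.36, 3.95 and 5.6 TPM in WT rats and 5.83, 6.53, 5.63, 8 and 7.32 TPM in P1.hMR rats. In WT rats the groups overlapped, since UVB WT rat 2 was below Control WT rat 4, and in P1.hMR rats they did not. The difference was 0.82 (limma adjusted p = 0.00457) in WT rats and 1.02 (adjusted p = 7.11e-05) in P1.hMR rats.

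Fcgr2b, the inhibitory Fc receptor, was at 3.36, 4.4, 3.42 and 5.48 TPM in Control WT and 4.44, 6.08, 2.61, 6.32 and 4.85 TPM in Control P1.hMR rats. It was at 11.71, 5.42 and 7.53 TPM in UVB WT and 7.77, 6.96, 8.69, 12.19 and 9.58 TPM in UVB P1.hMR rats, where the WT groups overlapped and the P1.hMR groups did not. The difference was 0.80 (limma adjusted p = 0.0317) in WT rats and 0.80 (adjusted p = 0.00618) in P1.hMR rats. The call in WT rats was lost in each of the fits that left out Control WT rat 1, 2 or 3 or UVB WT rat 1 or 3, with limma adjusted p from 0.0504 to 0.159. It was also lost with sample weights (adjusted p = 0.0558), with a skeletal muscle covariate (0.0562) and in a fit of the WT rats alone (0.0619). Fcgr genes are close relatives, so reads may have been split between them.

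Tyrobp, the adaptor that signals for many activating myeloid receptors, was at 15.44, 20.13, 20.91 and 42.86 TPM in Control WT and 22.91, 32.56, 20.21, 35.61 and 23.22 TPM in Control P1.hMR rats. It was at 40.57, 24.16 and 45.86 TPM in UVB WT and 41.31, 39.22, 42.15, 51.11 and 48.63 TPM in UVB P1.hMR rats. Control WT rat 4 lay within the UVB WT rats, whereas in P1.hMR rats the groups did not overlap. Tyrobp rose by 0.73 in P1.hMR rats (limma adjusted p = 0.0188) and had a difference of 0.61 in WT rats (adjusted p = 0.128). The interaction of genotype and UVB was 0.12 (adjusted p = 0.964), so the 2 responses were not shown to differ. Without Control WT rat 4, Tyrobp was called in WT rats, at 0.90 (limma adjusted p = 0.0136), and without Control P1.hMR rat 3 it was not called in P1.hMR rats, at 0.64 (limma adjusted p = 0.0502). Fcer1g, the related Fc receptor gamma chain, had differences of 0.52 and 0.59, and Aif1, which encodes the macrophage protein Iba1, 0.50 and 0.51 in WT and P1.hMR rats. Both passed with the genotypes averaged and in neither genotype alone, at 0.56 (limma adjusted p = 0.0276) and 0.51 (adjusted p = 0.0429). The averaged call of Aif1 was lost in 12 of the 17 fits that left out 1 rat (adjusted p from 0.0598 to 0.145), with no filter on low levels (0.0616) and with a skeletal muscle covariate (0.17). That of Fcer1g was lost without Control WT rat 1 or 3 or UVB WT rat 1 or 3 (limma adjusted p from 0.0525 to 0.0761) and with the skeletal muscle covariate (0.0829). Fcer1g was called in WT rats without Control WT rat 4, at 0.84 (limma adjusted p = 0.025), and Aif1 without UVB WT rat 2, at 0.95 (limma adjusted p = 0.0204). In P1.hMR rats Fcer1g was called without Control WT rat 1 or 4 or Control P1.hMR rat 2, and Aif1 without UVB WT rat 2, with adjusted p from 0.0198 to 0.0482.

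The other 5 genes of this group lay below 0 in both genotypes, and none was called. Lyz2, which encodes lysozyme, was at 88.56, 143.85, 85.72 and 338.64 TPM in Control WT and 209.69, 276.66, 88.73, 314.16 and 111.74 TPM in Control P1.hMR rats. It was at 104.17, 72.17 and 114.34 TPM in UVB WT and 153.28, 116.25, 117.42, 158.81 and 143.48 TPM in UVB P1.hMR rats. Its control rats spanned a wide range that held nearly all UVB rats, and the difference was -0.54 (95% interval -1.48 to 0.40) in WT rats and -0.38 (-1.16 to 0.39) in P1.hMR rats. Reads of Lyz2 may have been shared with other lysozyme genes.

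Trem2, a lipid-sensing receptor that signals through Tyrobp, was at 1.01, 1.86, 0.75 and 4.37 TPM in Control WT and 2.77, 4.02, 0.75, 4.9 and 1.59 TPM in Control P1.hMR rats. It was at 1.46, 1.09 and 1.13 TPM in UVB WT and 2.01, 1.01, 1.31, 0.81 and 0.58 TPM in UVB P1.hMR rats, with Control WT rat 4 and Control P1.hMR rats 2 and 4 highest. The difference was -0.29 in WT rats and -0.73 in P1.hMR rats (95% interval -1.41 to -0.05, limma adjusted p = 0.0829). Without Control WT rat 4 or Control P1.hMR rat 3, Trem2 was called lower in P1.hMR rats, with limma adjusted p of 0.0477 and 0.0185, the only called fall of a member in that comparison under any alternative.

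Clec7a, the beta-glucan receptor dectin-1, was at 1.11, 2.25, 1.62 and 5.28 TPM in Control WT and 2.34, 3.44, 1.51, 3.23 and 1.6 TPM in Control P1.hMR rats. It was at 1.3, 0.98 and 2.07 TPM in UVB WT and 1.94, 1.65, 1.96, 2.52 and 2.61 TPM in UVB P1.hMR rats, with overlap in both genotypes. The differences were -0.44 and -0.10 for Clec7a, -0.37 and -0.31 for Gpnmb, a glycoprotein of lipid-laden macrophages, and -0.45 and -0.15 for Slc11a1, a metal transporter of the phagosome. Over all rats Gpnmb, ranged from 63.86 to 166.1 TPM and Slc11a1 from 0.23 to 1.61 TPM.

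Of the 9 integrin, leukocyte and oxidase genes, Plek was called in both genotypes and Laptm5 in P1.hMR rats. Plek, which encodes pleckstrin, a substrate of protein kinase C in platelets and leukocytes, was at 1.81, 1.24, 1.67 and 2.43 TPM in Control WT and 1.89, 2.22, 1.5, 2.77 and 1.64 TPM in Control P1.hMR rats. It was at 3.68, 4.15 and 8.54 TPM in UVB WT and 8.13, 9.84, 17.49, 11.83 and 8.39 TPM in UVB P1.hMR rats. UVB WT rat 3 lay among the P1.hMR rats, while UVB WT rats 1 and 2 lay between the control and the UVB P1.hMR rats. Plek rose by 1.15 (standard error 0.25, limma adjusted p = 0.005) in WT and by 1.98 (standard error 0.21, adjusted p = 5.19e-06) in P1.hMR rats.

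Laptm5, a lysosomal membrane protein of blood cells, was at 11.74, 15.6, 15.56 and 23.5 TPM in Control WT and 17.76, 22.26, 14.59, 19.94 and 15.36 TPM in Control P1.hMR rats. It was at 24.4, 15.79 and 30.39 TPM in UVB WT and 30.77, 28.79, 26.95, 25.97 and 31.04 TPM in UVB P1.hMR rats, and UVB WT rat 2 lay within the controls. Laptm5 rose by 0.66 (limma adjusted p = 0.00605) in P1.hMR rats, had a difference of 0.47 in WT rats (adjusted p = 0.112) and an interaction of 0.19 (adjusted p = 0.922). It was called in WT rats without Control WT rat 4, at 0.64 (limma adjusted p = 0.0297), and without UVB WT rat 2, at 0.72 (limma adjusted p = 0.0237). The pan-leukocyte phosphatase gene Ptprc, between 1.38 and 3.62 TPM in Control WT rats, had differences of 0.025 (95% interval -0.35 to 0.40) in WT rats and -0.029 (-0.34 to 0.28) in P1.hMR rats. The integrin chains Itgam and Itgb2, which together form complement receptor CR3, had differences of 0.27 and -0.13 in WT rats and 0.13 and -0.25 in P1.hMR rats. For Coro1a, an actin regulator of leukocytes, they were 0.14 and 0.28. Levels over all rats ran from 0.54 to 2.51 TPM for Itgam, 2.34 to 8.33 TPM for Itgb2 and 8.73 to 15.24 TPM for Coro1a.

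The oxidase genes showed no called change. The membrane subunit Cybb, at levels from 2.09 to 8.5 TPM, had a difference of 0.01 in WT rats and -0.023 in P1.hMR rats. The cytosolic subunits Ncf1, from 2.67 to 9.6 TPM, and Ncf4, from 4.82 to 12.92 TPM, had differences of -0.073 and -0.077 in WT rats and -0.23 and 0.083 in P1.hMR rats. The intervals for Cybb were wide, at -0.79 to 0.81 in WT rats and -0.69 to 0.64 in P1.hMR rats, so changes up to these bounds in either direction could not be told from none.

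**Figure D4:**
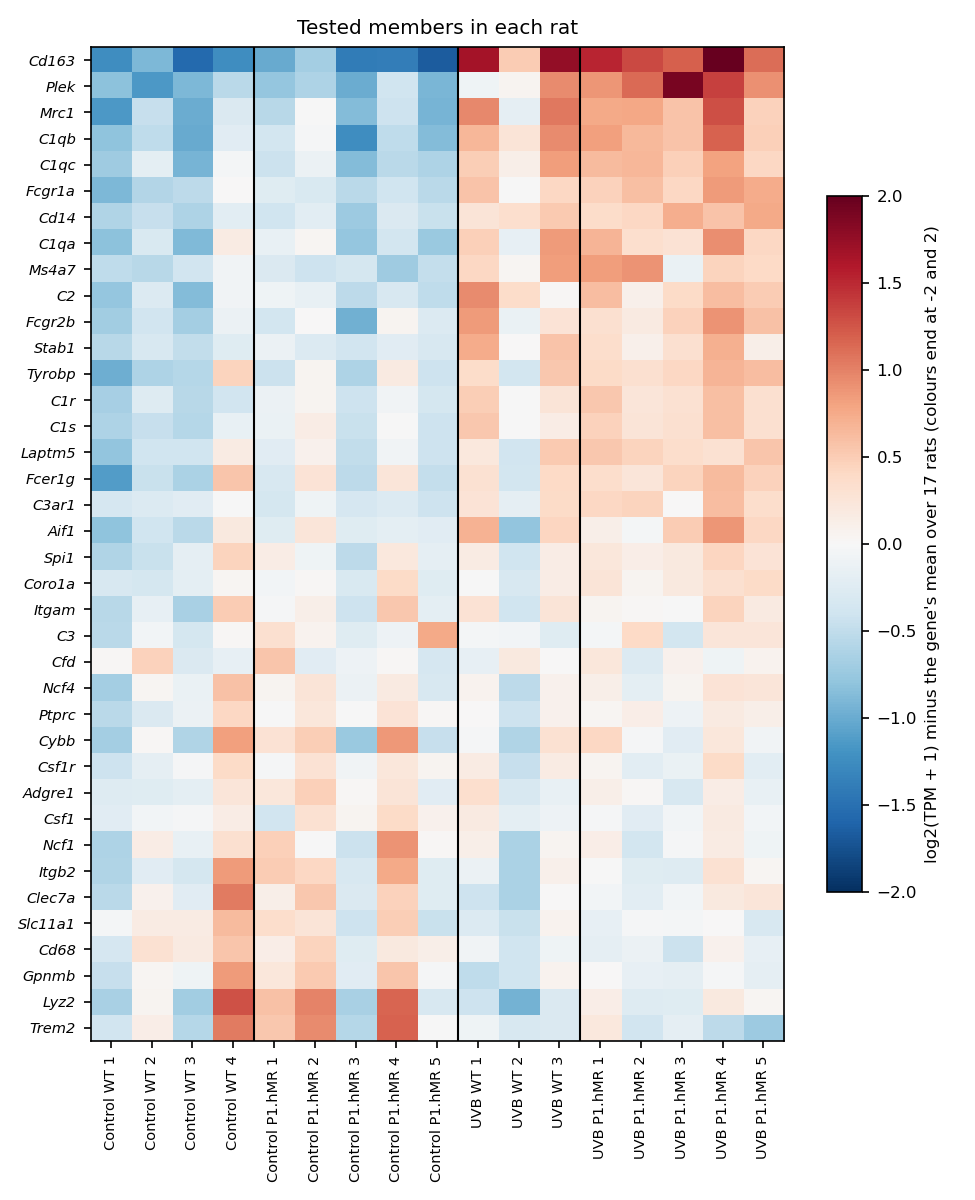
Each row is 1 of the 38 tested members and each column 1 of 17 rats, with the colour giving log2(TPM + 1) minus the gene's mean over all rats, cut at -2 and 2. Rows from Cd163 to C1s turn from blue in the control to red in most UVB rats, Control WT rat 4 is redder than its group in the lower rows, and UVB WT rat 2 is paler than its group.

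All 6 classical pathway genes of the set rose in both genotypes, with a median difference of 0.89 in WT rats and 0.85 in P1.hMR rats. C4a and C4b, which encode the C4 of this pathway, were not listed under those symbols, so the pathway was not covered in full. C1qa, C1qb and C1qc encode the 3 chains of C1q, the recognition part of the C1 complex. C1qa was at 19.02, 27.65, 18.18 and 38.34 TPM in Control WT and 30.79, 35.23, 19.7, 26.27 and 20.01 TPM in Control P1.hMR rats, and at 47.95, 30.59 and 62.55 TPM in UVB WT and 55.61, 43.63, 42.03, 65.81 and 45.84 TPM in UVB P1.hMR rats. Control WT rat 4 lay above UVB WT rat 2, so the WT groups overlapped. The difference was 0.85 (standard error 0.27, limma adjusted p = 0.0346) in WT and 0.93 (standard error 0.22, adjusted p = 0.00388) in P1.hMR rats. The call in WT rats was lost without Control WT rat 1 or 3 or UVB WT rat 1 or 3, with limma adjusted p from 0.0777 to 0.157. It was also lost with no filter on low levels (adjusted p = 0.0527), with a skeletal muscle covariate (0.129) and in a fit of the WT rats alone (0.0992).

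C1qb was at 14.32, 17.83, 12.29 and 21.7 TPM in Control WT and 19.69, 25.29, 10.24, 17.71 and 13.63 TPM in Control P1.hMR rats. It was at 41.11, 30.72 and 50.37 TPM in UVB WT and 46.21, 40.61, 38.39, 59.12 and 36.19 TPM in UVB P1.hMR rats, with no overlap in either genotype. It rose most of the complement members, by 1.25 (standard error 0.25, limma adjusted p = 0.0029) in WT and 1.34 (standard error 0.21, adjusted p = 1.40e-04) in P1.hMR rats. C1qc was at 15.78, 23.14, 13.46 and 25.94 TPM in Control WT and 19.36, 24.46, 14.08, 18.01 and 17.01 TPM in Control P1.hMR rats. It was at 37.56, 28.77 and 47.95 TPM in UVB WT and 41.85, 42.77, 37.36, 46.98 and 35.61 TPM in UVB P1.hMR rats, also without overlap. The rise was 0.94 (limma adjusted p = 0.0052) in WT rats and 1.11 (adjusted p = 1.30e-04) in P1.hMR rats.

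The 3 chains did not keep their proportions, a point noticed in the values and not tested. Of the summed TPM of the 3 genes, C1qb made up 27.1% ± 1.8 (SD, n = 4) in Control WT and 27.3% ± 2.5 (SD, n = 5) in Control P1.hMR rats. It made up 32.6% ± 1.4 (SD, n = 3) in UVB WT and 32.4% ± 1.3 (SD, n = 5) in UVB P1.hMR rats, where every UVB rat, from 30.76%, lay above every control rat, up to 29.76%. C1qa went from 41.3% and 42.4% in Control WT and Control P1.hMR rats to 36.9% and 37.2% in UVB WT and UVB P1.hMR rats. C1qc stayed between 30.2% and 31.7% on average in all 4 groups.

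C1r and C1s encode the serine proteases of the C1 complex. C1r was at 33.22, 44.33, 35.91 and 40.3 TPM in Control WT and 48.82, 54.87, 39.32, 50.19 and 41.42 TPM in Control P1.hMR rats, and at 74.97, 52.62 and 63.59 TPM in UVB WT and 77.27, 63.09, 65.4, 80.45 and 66.48 TPM in UVB P1.hMR rats. No UVB rat overlapped with the controls of its genotype, though UVB WT rat 2 lay below the highest Control P1.hMR rat. It rose by 0.71 (standard error 0.13, limma adjusted p = 0.00182) in WT and 0.58 (standard error 0.11, adjusted p = 6.34e-04) in P1.hMR rats.

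C1s was at 41.01, 46.02, 42.65 and 57.07 TPM in Control WT and 57.74, 70.7, 46.57, 63.36 and 47.61 TPM in Control P1.hMR rats. It was at 93.14, 63.58 and 70.69 TPM in UVB WT and 88.31, 76.54, 79.48, 96.75 and 79.98 TPM in UVB P1.hMR rats, without overlap within a genotype. The rise was 0.68 (limma adjusted p = 0.00539) in WT rats and 0.56 (adjusted p = 0.00223) in P1.hMR rats. Without Control P1.hMR rat 3 it fell just under the fold threshold in P1.hMR rats, at 0.49 (limma adjusted p = 0.00727). C2, the protease that C1s cleaves, was at 19.87, 28.48, 18.53 and 33.15 TPM in Control WT and 32.77, 31.14, 23.9, 27.76 and 24.04 TPM in Control P1.hMR rats. It was at 67.58, 45.32 and 35.52 TPM in UVB WT and 53.99, 37.21, 45.83, 54.05 and 49.67 TPM in UVB P1.hMR rats, and UVB WT rat 1 stood highest of all. C2 rose by 0.95 (limma adjusted p = 0.0054) in WT rats and 0.76 (adjusted p = 0.00271) in P1.hMR rats.

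C3, the central component, and Cfd, the alternative pathway protease factor D, were not called. C3 was at 0.68, 1.34, 0.91 and 1.49 TPM in Control WT and 2.03, 1.55, 1.06, 1.26 and 3.12 TPM in Control P1.hMR rats, and at 1.37, 1.35 and 1.06 TPM in UVB WT and 1.37, 2.2, 0.89, 1.88 and 1.88 TPM in UVB P1.hMR rats. The groups overlapped in both genotypes, and the difference was 0.12 (95% interval -0.35 to 0.58) in WT rats and -0.064 (-0.45 to 0.32) in P1.hMR rats. Cfd was at 62.43, 84.95, 49.88 and 54.28 TPM in Control WT and 90.9, 52.18, 56.89, 62.4 and 48.36 TPM in Control P1.hMR rats, and at 54.26, 70.12 and 61.36 TPM in UVB WT and 71.82, 50.73, 64.95, 57.36 and 64.42 TPM in UVB P1.hMR rats. The groups overlapped throughout, with intervals of -0.41 to 0.41 in WT rats and -0.32 to 0.36 in P1.hMR rats.

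C3ar1, the receptor for the C3a fragment, was at 0.37, 0.43, 0.48 and 0.71 TPM in Control WT and 0.35, 0.63, 0.36, 0.42 and 0.3 TPM in Control P1.hMR rats. It was at 1.08, 0.52 and 1.25 TPM in UVB WT and 1.3, 1.35, 0.73, 1.65 and 1.21 TPM in UVB P1.hMR rats, with overlap in WT rats only through UVB WT rat 2. C3ar1 rose by 0.66 (limma adjusted p = 7.52e-04) in P1.hMR rats and had a difference of 0.37 (adjusted p = 0.102) in WT rats, with an interaction of 0.30 (adjusted p = 0.812). It passed the filter only with the UVB rats, so only a high UVB value could have let it in. Without UVB WT rat 2, C3ar1 was called in WT rats, at 0.54 (limma adjusted p = 0.0304). At these levels TPM is listed with 2 decimals and the number of reads behind it is unknown.

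**Figure D5:**
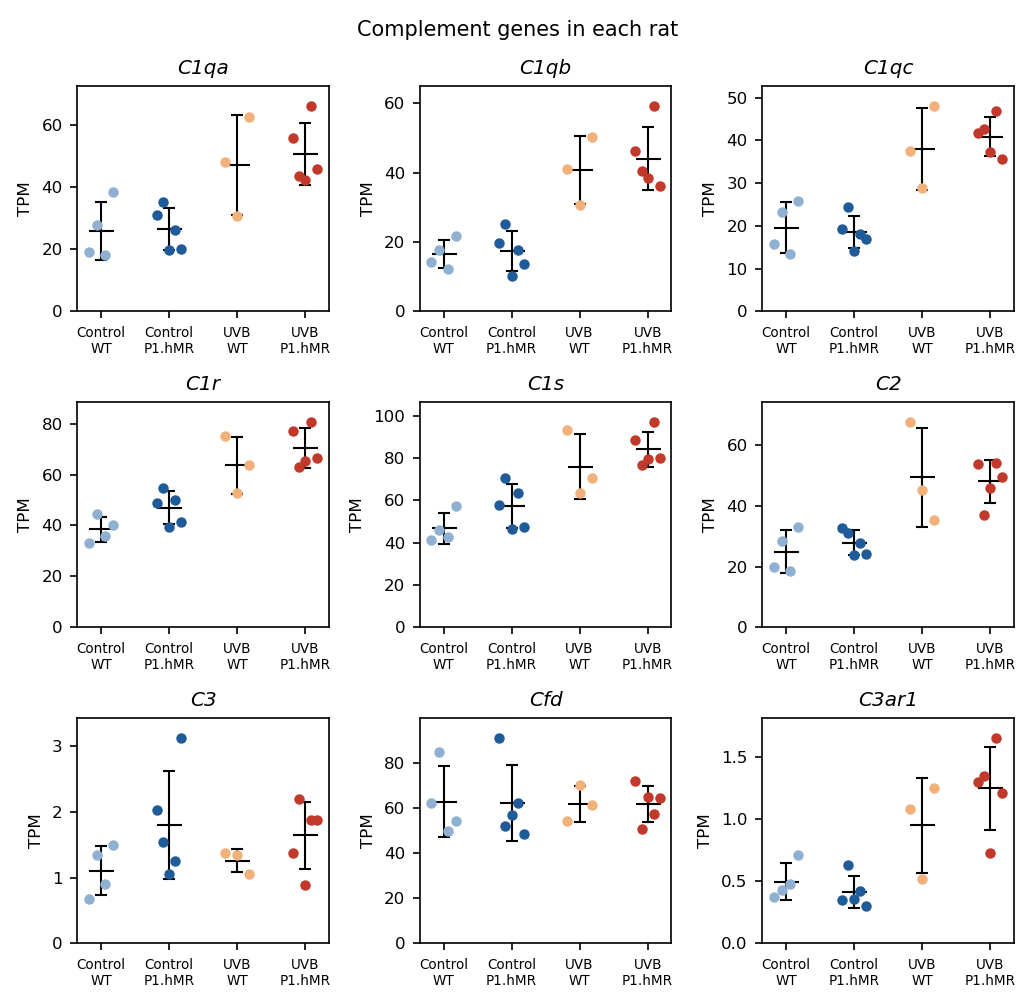
TPM of the 9 listed complement members in each rat (points), with the mean and SD of each group (bars), on linear axes from 0. The 6 classical pathway genes are higher in the UVB groups, C3 and Cfd overlap in all groups, and C3ar1 is higher in the UVB P1.hMR rats.

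Other genes of the same pathways, from lists written with earlier results of these data known, moved in part. Of 20 other complement components, 15 were listed and 11 tested, and 4 were called higher and 0 lower in each genotype. Fcna and Fcnb, which encode the lectin pathway ficolins, had differences of 1.09 and 0.70 in WT rats and 1.08 and 0.74 in P1.hMR rats. Cfi, which encodes the C3b-cleaving factor I, had 0.81 and 1.34, and Masp1, a lectin pathway protease, 0.61 and 0.91. Of 7 tested complement regulators, 2 were called higher in each genotype, Cfi and Serping1, which encodes the C1 inhibitor and had differences of 1.27 and 1.07.

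Of 20 tested other macrophage genes, 3 rose and 3 fell in WT rats, and in P1.hMR rats 6 rose and 2 fell. The lectin gene Clec10a rose by 1.10 in WT rats and 1.10 in P1.hMR rats. The folate receptor gene Folr2 rose by 0.85 in WT rats and 0.88 in P1.hMR rats. The inhibitory receptor gene Lilrb4 rose by 1.02 in P1.hMR rats and was not called in WT rats, at 0.40. Nos2, the inducible nitric oxide synthase, fell in both, with differences of -1.26 and -1.54. Of 5 tested oxidase and Fc receptor genes outside the set, 0 were called in WT rats and Fcgr2a in P1.hMR rats, at 0.51. Among 5 tested genes for CSF ligands and receptors, Csf2rb rose by 1.32 and 1.07 and Csf3r by 0.88 and 1.22, while Il34, the second ligand of Csf1r, had differences of -0.92 and -0.92.

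Markers of other cells also moved with UVB, and their part in the values of the members was not tested. The summed TPM of 8 mast cell markers lay between 21.87 and 32.39 in all control rats and between 40.22 and 68.07 in all UVB rats, with 3 of 6 tested markers called higher in WT rats and 5 in P1.hMR rats. Of 7 fibroblast markers, which belong to cells that can also make C1r and C1s, 4 were called higher in each genotype and 1, Col1a1, lower in P1.hMR rats, while the sum overlapped between control and UVB rats (927.1 to 1559 and 1220 to 1958 TPM). Of 4 tested neutrophil markers, 2 and 3 were called higher, and Elane was at 0 in every rat outside the UVB P1.hMR group. The summed TPM of the neutrophil markers lay between 1563 and 1917 in control rats and between 1842 and 2823 in UVB rats, without overlap within either genotype. This sum comes mainly from the tested S100a8, S100a9, Csf3r and Mmp9. The listed Mpo, Elane, Camp, Ngp, Ltf, Mmp8 and Retnlg did not reach 1 TPM in 3 rats. The paper reports S100A9 protein in human eyelid epithelium as well, so the sum is not a measure of neutrophils alone. Endothelial markers were called higher for 2 of 6 in WT rats and 1 in P1.hMR rats, and their summed TPM lay between 46.39 and 61.71 in all control rats and between 62.1 and 78.07 in all UVB rats. T cell markers were called higher for 2 of 5 in each genotype, with sums that overlapped in WT rats (7.2 to 10.08 and 7.26 to 13.8 TPM) but not in P1.hMR rats (6 to 12.11 and 12.33 to 15.52 TPM). B cell markers were called for 0 of 2, with sums of at most 3.16 TPM in any rat. Of 7 tested dendritic and Langerhans cell markers, 1 was called higher and 1 lower in WT rats and 2 higher and 1 lower in P1.hMR rats. Hair keratin genes were lower in 4 of 8 in WT rats and 2 in P1.hMR rats, skeletal muscle genes in 1 of 7 in each, and among 5 tested adipocyte markers 1 was lower in WT rats and 1 higher in P1.hMR rats. Of 9 meibocyte genes, 1 was called higher in each genotype, 1 lower in WT rats and 2 lower in P1.hMR rats.

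Genotype was examined next, first among the irradiated rats. Of the 38 tested members, 0 were called for P1.hMR against WT after UVB, against 0.0229% of all genes tested, and 2 had an unadjusted limma p under 0.05. The share of all genes at that unadjusted level is not given, here or for the comparisons below. The point estimate was positive for 34 members, with a median of 0.16 over the members and -0.019 over all genes. The members varied together between rats, so these signs are not separate observations and are no test of a genotype shift. The 3 largest differences belonged to Plek at 0.94 (95% interval 0.42 to 1.45, adjusted p = 0.232), Lyz2 at 0.52 (-0.38 to 1.42) and Clec7a at 0.37 (-0.22 to 0.97). Lyz2 was the only tested member for which every UVB P1.hMR rat lay above every UVB WT rat. The share of all genes separated in this way was not computed, and the interval of Lyz2 held 0. For Cd163 the difference was 0.12 (-0.47 to 0.71) and for C1qb 0.12 (-0.40 to 0.63). UVB WT rat 2 was low in most members, and without it the count of called members was 0. Without UVB WT rat 3, Plek alone was called, at 1.25 (limma adjusted p = 0.0262).

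Without UVB, 0 members were called for P1.hMR against WT, against 0.00763% of all genes, and 1 had an unadjusted limma p under 0.05. The point estimate was positive for 32 of the 38, with a median of 0.15 over the members and -0.0023 over all genes, and these signs are not separate observations either. C3 at 0.39 (95% interval -0.021 to 0.79), Trem2 at 0.36 (-0.37 to 1.08) and Lyz2 at 0.36 (-0.46 to 1.18) had the largest differences. The interaction of genotype and UVB was called for 0 members and 0% of all genes, with 1 member at an unadjusted limma p under 0.05. That member was Plek, with an interaction of 0.83 (95% interval 0.13 to 1.52, adjusted p = 0.704). For Cd163 the interaction was 0.11 (-0.69 to 0.91) and for C1qb 0.085 (-0.61 to 0.78). With the genotypes averaged, 19 members were called higher and 0 lower after UVB, against 4.6% and 4.88% of all genes, and the members' median was 0.38. These averaged values use the same rats as the 2 separate comparisons.

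The members varied together between rats of a group. After each group's mean was removed, the median Pearson correlation over the 703 pairs of tested members was 0.65 across 17 rats, and 668 pairs were positive. The points share libraries, so any overall difference between libraries enters every pair, and the values are a description only. The median was 0.80 within the integrin, leukocyte and oxidase genes and 0.79 within the classical complement genes, and the pair with the highest value was Tyrobp and Fcer1g at 0.98. Cfd, with a median of -0.05 against the other members, C3 with 0.13, Ms4a7 with 0.28 and Plek with 0.34 followed the rest least.

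Promoter sequence was available for 24 of the 40 listed members, as windows of 300 bases from 250 before to 50 after the RefSeq transcription start in the build GRCr8. The hexamer GAGGAA, the core of binding sites for PU.1, was counted on both strands. It was present in 15 of the 24 windows (62.5%) and in 27.5% of the 27457 windows of all genes. Among members called higher in both genotypes it was in 5 of 8 (62.5%), and among members called in neither in 9 of 14 (64.3%), so the letters did not part the members that rose from those that did not. The interferon-response-like GAAANNGAA was in 29.2% of the members' windows and 9.5% of all, GGGANTTCC, an NF-kB-like motif, in 8.3% and 1.7%, CCGCCC, an Sp1-like motif, in 33.3% and 34.9%, and TATAAA in 4.2% and 14.3%. A match is a string of letters and not a shown binding site, and a missing match says only that the letters are not in this window.

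Promoter windows are shown to set 3 members that rose beside 1 that did not, with GAGGAA or its reverse complement TTCCTC in capitals and each sequence given 5′ to 3′ on the gene's strand. Mrc1 (chr17:82157475-82157774, plus strand) and Csf1r (chr18:56834129-56834428, plus strand) hold 2 cores each, and only Mrc1 was called. C1qa (chr5:154419884-154420183, minus strand) and C1qb (chr5:154407778-154408077, minus strand) belong to a cluster in which C1qc lies between them with no other gene, and of this pair only C1qb holds the core, in 2 copies. C1r and C1s are also direct neighbours.
Mrc1: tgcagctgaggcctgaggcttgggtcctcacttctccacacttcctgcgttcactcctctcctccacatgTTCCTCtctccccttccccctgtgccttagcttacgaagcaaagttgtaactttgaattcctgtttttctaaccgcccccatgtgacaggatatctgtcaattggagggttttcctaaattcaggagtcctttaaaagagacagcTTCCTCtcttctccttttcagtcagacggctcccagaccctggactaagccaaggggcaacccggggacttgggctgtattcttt
Csf1r: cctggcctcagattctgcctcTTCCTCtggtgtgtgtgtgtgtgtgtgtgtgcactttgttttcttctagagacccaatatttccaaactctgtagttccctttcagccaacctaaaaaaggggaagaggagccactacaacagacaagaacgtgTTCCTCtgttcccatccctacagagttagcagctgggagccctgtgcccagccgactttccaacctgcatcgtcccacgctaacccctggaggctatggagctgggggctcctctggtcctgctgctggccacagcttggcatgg
C1qa: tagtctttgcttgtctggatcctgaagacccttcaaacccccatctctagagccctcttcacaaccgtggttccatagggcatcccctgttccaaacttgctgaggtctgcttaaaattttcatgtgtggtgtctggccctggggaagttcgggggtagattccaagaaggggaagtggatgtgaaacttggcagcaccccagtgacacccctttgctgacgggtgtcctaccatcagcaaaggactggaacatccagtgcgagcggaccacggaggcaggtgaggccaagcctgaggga
C1qb: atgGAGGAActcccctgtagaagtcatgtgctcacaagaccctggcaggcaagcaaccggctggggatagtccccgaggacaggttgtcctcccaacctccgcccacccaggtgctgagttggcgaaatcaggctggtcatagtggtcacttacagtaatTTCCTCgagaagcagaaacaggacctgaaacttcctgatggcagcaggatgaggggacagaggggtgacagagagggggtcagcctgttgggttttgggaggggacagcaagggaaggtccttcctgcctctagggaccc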

How the data were processed

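MG RNA of 17 rats was sequenced. The deposited values are TPM, made by the authors with FastQC, STAR on the genome rn7 and RSEM per the study's methods, while the labels' processing notes name FastQC, Trimmomatic, DRAGEN, Picard and rn7. Values are listed with 2 decimals and a decimal comma, column sums lay between 804378 and 840817, and 0 columns were left unmapped to a sample. TPM keeps no depth, so no counting error was computed and precision comes from the spread between rats. Any 2 columns differed in at least 15628 genes.

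Values were analysed as log2(TPM + 1) in R 4.3.3 with limma 3.58.1, with 1 model for the 4 groups, a variance trend, two-sided p and Benjamini-Hochberg adjustment over the 13105 genes that reached 1 TPM in 3 or more rats. A gene was called at an adjusted p under 0.05 and an absolute difference of at least 0.5, the thresholds of the study's methods, whose own test needs counts. The script was tested on simulated data. Python 3.11.15 with numpy 2.4.6, pandas 2.3.3 and matplotlib 3.10.9 gave the descriptions and figures.

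Members and lists were chosen with earlier results of these data known. Every listed member was named, per-rat TPM was given for members called after UVB, for complement members, for Csf1r (chosen after values were seen) and for the 3 largest genotype differences, and other lists were named by their 3 largest called genes, except marker lists, given as counts. Adgre1, Cd68, Csf1r and Ptprc were plotted, and the ratios and C1q shares computed, after values were seen. A planned comparison of protein sequences was not run. The alternatives are given in the closing section.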

Additional observations from a re-analysis of the deposited data

Results flagged for a closer look

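Among 120 combinations of a listed member and a group of 4 or 5 rats, 2 had a rat that stood apart from its group by Dixon's ratio at the 95% level, a criterion that chance meets in about 1 of 20 groups. Adgre1 was at 1.41 TPM in Control WT rat 4, against 0.71 to 0.78 TPM in the other rats of its group, with a ratio of 0.88. Aif1 was at 10.39 TPM in Control P1.hMR rat 2, against 7.11 to 7.43 TPM in the others, with a ratio of 0.89. Neither gene was called after UVB in either genotype.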

How the results depend on the processing

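No called member reversed under any alternative. At an absolute log2 difference of at least 1, 4 members were called in WT, 6 in P1.hMR and 5 with genotypes averaged. The share of all genes called at that threshold is not given, so these counts have no background beside them. With each rat left out in turn, the counts ran from 11 to 17 in WT, 16 to 19 in P1.hMR and 15 to 19 averaged, from 0 to 1 for genotype under UVB, where 1 was reached without UVB WT rat 3, and stayed at 0 for genotype without UVB and for the interaction. The other alternatives were sample weights, no variance trend, no fold threshold, a 0.1 pseudocount, and no filter or one of 5 TPM on the mean. There were also a separate fit for each pair of groups, a skeletal muscle or hair keratin covariate, and quantile or median-of-ratios scaling. All kept each count within 1.5 times its first value but ended or added single calls. The muscle covariate ended those of Ms4a7, Fcgr2b and C1qa in WT and of Fcer1g, Aif1 and C3ar1 averaged, the separate fit, which tested 35 members, those of Fcgr2b and C1qa in WT, sample weights that of Fcgr2b in WT, and the lack of a filter those of C1qa in WT and Aif1 averaged. Leaving out 1 rat also took the averaged Laptm5 and C3ar1 under the threshold of 0.5 in 2 and 5 fits. The hair keratin covariate added calls of Tyrobp and Laptm5 in WT, of Spi1, Fcer1g and Aif1 in P1.hMR, and of Spi1 averaged. Hair keratin was itself lower on average after UVB, and its part in these added calls was not tested. The separate fit added Fcer1g and Aif1 in P1.hMR, and sample weights added Fcer1g there. With genotypes averaged, Cd68 was called lower at no fold threshold, and Trem2 without Control P1.hMR rat 3. The filter of 5 TPM cut the tested members from 38 to 23 and left Mrc1, Stab1, Ms4a7, Fcgr1a and C3ar1 untested. Of 1122 values of tested members over the alternatives for UVB in WT, 51 changed sign, as did 26 of 1125 in P1.hMR and 114 of 1087 for the interaction, all in members called in neither fit. Same-numbered UVB and control rats of 1 genotype correlated at -0.19 to 0.05 over 8 pairs, and those of different genotypes at -0.11 to 0.18 over 7. Same-numbered rats of 1 treatment and different genotypes correlated at -0.13 to 0.24 over 7 pairs, with 3 over 0.1. The numbers were not taken to pair the rats. With the replicate number as a block, 15 members were called in WT, adding Tyrobp, and 18 in P1.hMR rats, adding Fcer1g. Depth is unknown, which limits members near 1 TPM most.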
